A study of Mus musculus with 6 samples.

Results

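The cytosolic ribosomal protein genes were examined in B16F10 mouse melanoma cells with and without OSGEP. The family was chosen with earlier results of these data known, and its members were set by a symbol rule. The rule took genes named Rpl or Rps with a number (and at most 1 letter and 1 further digit). Rplp0, Rplp1, Rplp2 and Rpsa were added, and symbols marked -ps were left out. The rule selected 89 of the 55487 genes in the deposited count table, 53 of the large and 36 of the small subunit. Of these, 83 are protein-coding in the GENCODE M21 annotation and 6 are processed pseudogenes (Rps3a2, Rps3a3, Rpl6l, Rps12l1, Rpl32l and Rps4l). They lie on 19 chromosomes, with at most 15 on the same one. RNA-seq of polyA RNA was available for 3 libraries of cells that received a control shRNA (shCtr, genotype given as WT) and 3 libraries of cells that received shRNA OSGEP#2 (shOSGEP, genotype given as KD OSGEP). All 6 came from the same cell line, infected with lentivirus carrying the hairpin, selected with puromycin and grown in DMEM with serum, and the labels speak of 3 independent infections. A single hairpin against OSGEP was sequenced, so an effect of that hairpin and an effect of OSGEP loss cannot be told apart.

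Each ribosome is built from a small subunit, which reads the mRNA, and a large subunit, which joins amino acids, and almost every protein of either subunit is present in a single copy per ribosome. The mRNAs of these proteins are among the most abundant of a growing cell and usually start with a C followed by a run of pyrimidines (the TOP motif), through which mTOR and LARP1 adjust their translation and stability. OSGEP is the catalytic subunit of KEOPS, which places the t6A modification on tRNAs that read codons starting with A (ANN codons).

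The libraries held between 18915587 and 29487384 counts. Osgep, the targeted gene, stood at 20.6, 58.6 and 21.8 CPM (CPM is the count scaled to library size by TMM) in shCtr 1, 2 and 3. In shOSGEP 1, 2 and 3 it stood at 4.28, 0.542 and 5.52 CPM. It was lower in every shOSGEP library than in any shCtr library. Its Log2FC was -3.29 (SE 0.88, edgeR, unadjusted p = 0.00524, adjusted p = 1.00). All 7 melanocyte markers examined were expressed highly enough to test. Their Log2FC was below 0 in 7 of 7 (-1.26 to -0.12, median -0.87) with 0 at an unadjusted p under 0.05, and their median log2 ratio between the libraries of the same number was -0.07, -2.55 and -0.12 at numbers 1, 2 and 3. Pmel, a protein of the pigment granule, stood at 13300 CPM in shCtr 2 and 485 CPM in shOSGEP 2, and at 3493 to 4669 CPM in the other 4 libraries. The part of this difference in the ribosomal protein values was not tested. By contrast, 12 of 14 markers of leukocytes, endothelium, epithelium and fibroblasts were too low to test. The shCtr 2 library stood apart, with a TMM factor of 0.690 against 1.04 to 1.14 in the other 5, and the main results are given with and without it. In bulk RNA, a change in the number of cells and a change in RNA per cell cannot be told apart.

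RefSeq promoter sequences (GRCm38.p6) were matched by symbol for 64 of the 89 members. The windows below span 15 bases before and 15 bases from the annotated start, 5′ to 3′, and a run of C followed by at least 4 further C or T is in capitals. They are shown because Rps10, Rpl15 and Rps3 had some of the lowest fold changes between shOSGEP and shCtr and Rpl22l1 and Rpl26 some of the highest. Rps10 lies at chr17:27635230-27635259 (minus strand), Rpl15 at chr14:18270972-18271001 (minus), Rps3 at chr7:99483695-99483724 (minus), Rpl22l1 at chr3:28805493-28805522 (plus) and Rpl26 at chr11:68901551-68901580 (plus).
Rps10: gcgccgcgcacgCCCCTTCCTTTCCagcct
Rpl15: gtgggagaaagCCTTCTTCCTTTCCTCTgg
Rps3: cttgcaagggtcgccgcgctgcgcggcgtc
Rpl22l1: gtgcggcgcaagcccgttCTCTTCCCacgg
Rpl26: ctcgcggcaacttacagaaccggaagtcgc

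Such a run of at least 5 bases started in this window in 40 of the 64 matched members (62.5%), against 39.4% of 27025 promoters in the table. A run of at least 8 bases started there in 39.1% of members and in 10.5% of all promoters. The letters CCGGAAG of ETS factors, searched on both strands from 250 bases before to 50 bases after the start, were found in 37.5% of members and in 9.21% of all promoters, and the letters AAGATGG of YY1, also on both strands, in 14.1% and 6.46%. Members with and without a run of at least 8 bases had a median Log2FC of -0.36 (n = 24) and -0.31 (n = 36) between shOSGEP and shCtr. Of the genes printed above with such a run, Rps10 and Rpl15 had a Log2FC below 0 and Rpl22l1 above 0. A match is a description of the letters only, and a window without a run says only that these letters are not next to the annotated start.

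Ribosomal protein genes took a large and variable part of the counts. They held 6.63%, 12.5% and 6.63% of all counts in shCtr 1, 2 and 3 and 5.59%, 12.5% and 7.33% in shOSGEP 1, 2 and 3, with 95% Wilson intervals within 0.0132 percentage points of each value, which cover counting error only. Both libraries numbered 2 were the highest of their group, and the other 4 lay close together. The group means were 8.59% ± 3.38 (SD, n = 3) in shCtr and 8.47% ± 3.59 (SD, n = 3) in shOSGEP. Their difference of -0.11 percentage points was smaller than the spread of either group. It became 1.84 points without shCtr 2 and -2.12 points without shOSGEP 2. Transcripts encoded by the mitochondrial genome took 0.585% of counts in shCtr 2 and 1.30% to 4.75% in the other 5 libraries, with 1.71% in shOSGEP 2, so they did not follow the ribosomal share. Leaving them out of the total left the shares at 5.87% to 12.7%.

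**Figure D1:**
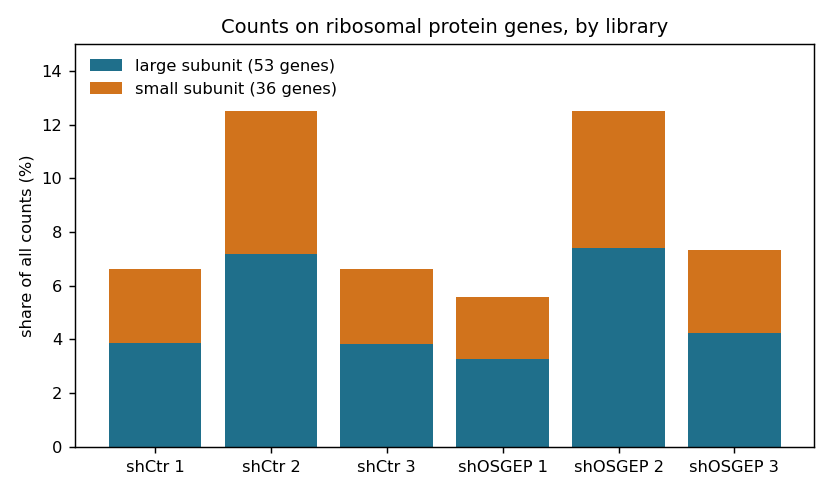
Share of all counts (%) on ribosomal protein genes in each library, stacked by subunit (53 large and 36 small subunit genes). The bars of shCtr 2 and shOSGEP 2 reach 12.5%, and the other 4 lie between 5.59% and 7.33%.

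The balance between the subunits varied little. The log2 ratio of summed large to summed small subunit counts was 0.50, 0.43 and 0.46 in shCtr 1, 2 and 3, and 0.51, 0.54 and 0.45 in shOSGEP 1, 2 and 3. The highest value was that of shOSGEP 2 and the lowest that of shCtr 2, and the groups overlapped. Their means were 0.46 ± 0.03 and 0.50 ± 0.05 (SD, n = 3 each), a difference of 0.04. The same-numbered libraries differed by 0.0072, 0.11 and -0.0037 (shOSGEP minus shCtr, numbers 1, 2 and 3), so the difference came from the libraries numbered 2. The share of the family thus varied between libraries while the ratio of its subunits lay between 1.35 and 1.46 in every library.

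No ribosomal protein gene passed the main test between shOSGEP and shCtr, and 2 passed in a single alternative fit. Of the 89 members, 82 were expressed highly enough to be tested (49 large, 33 small). With edgeR's quasi-likelihood test, 0 of them had an adjusted p under 0.05, 0 had an unadjusted p under 0.05 and 0 passed the threshold of the study (Log2FC beyond 0.5 with an unadjusted p under 0.05). Among all 12669 tested genes, the background was 0% for an adjusted p under 0.05, 2.02% for an unadjusted p under 0.05, 1.59% for higher and 0.426% for lower genes at the threshold of the study. DESeq2 also called 0 members, whether by adjusted p (background 0.111%) or by unadjusted p under 0.05 (background 2.92%). Limma-voom with quality weights called 0 members by either measure (background 0.0237% and 4.43%), but the same tool with a replicate block called Rpl35a and Rps21, described further on. The groups overlapped for all 82 members, where 6.36% of all tested genes had no overlap (3.49% higher in shOSGEP and 2.87% lower). The exact two-sided permutation test, which cannot go below 0.1 with 3 libraries against 3, gave p between 0.3 and 1.0.

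Log2FC was below 0 for 59 of the 82 members and above 0 for 23, with a background of 52.7% below 0. Their median was -0.29, with values from -0.87 to 0.84, against -0.03 over all tested genes. The large subunit (14 above 0, 35 below) had a median of -0.29 and the small subunit (9 above, 24 below) of -0.33. Standard errors of single members ran from 0.42 to 0.89, so no member lay 2 standard errors from 0. Among the fits that left out a single library, only that without shCtr 2 turned the sign of the median. Without shCtr 2 it was 0.35, with 80 members above 0, and without shOSGEP 2 it was -0.67, with 2 above 0. Without both libraries numbered 2, it was -0.08, with 24 members above 0 and 58 below.

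**Figure D2:**
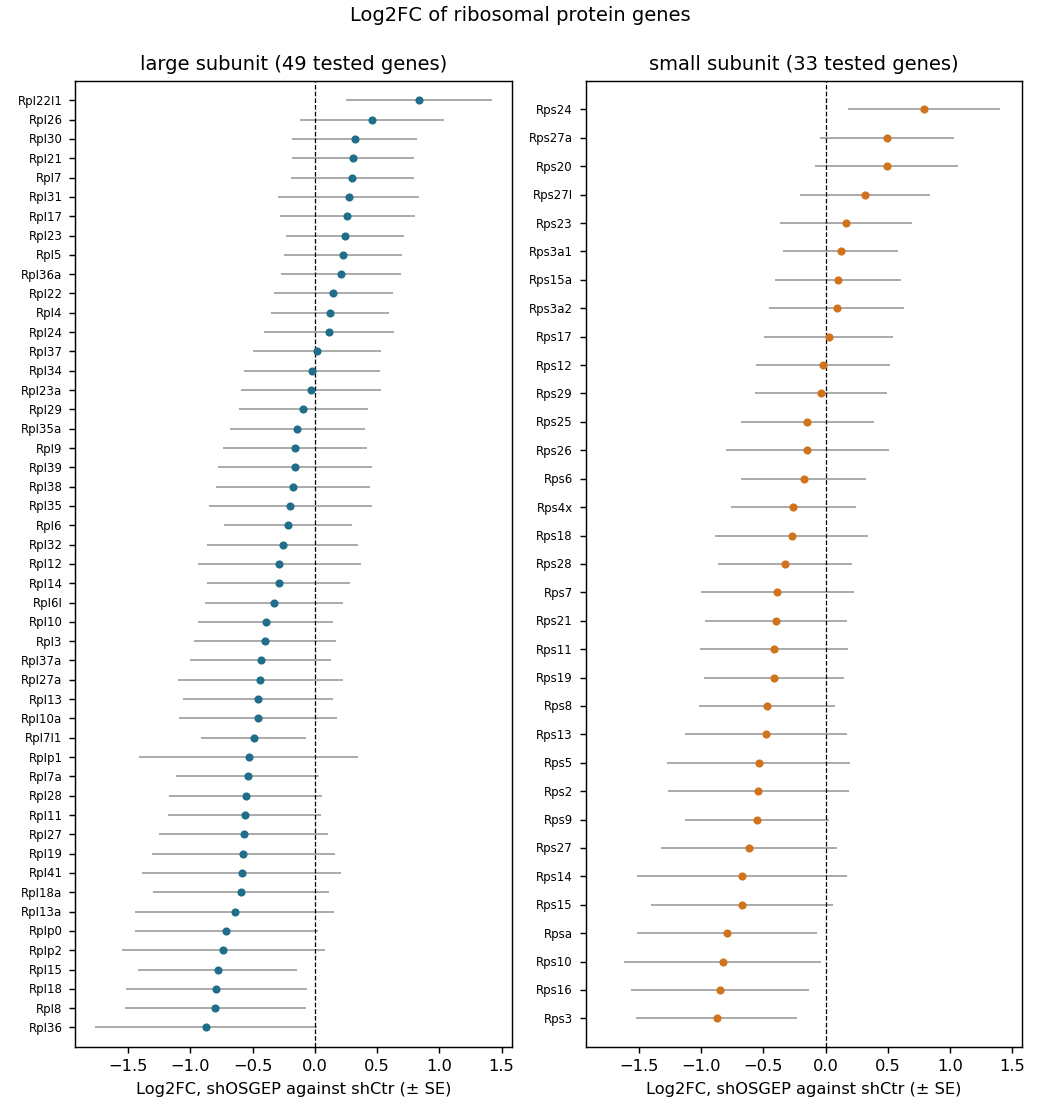
Log2FC of the 49 large and 33 small subunit genes tested (x axis, shOSGEP against shCtr, edgeR), ordered within each subunit, with bars of 1 SE. Values run from -0.87 to 0.84 in a continuous series, in both subunits, and no gene had an unadjusted p under 0.05.

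When each shOSGEP library was set against the shCtr library of the same number, the 3 comparisons went 3 ways. At number 1, all 82 members were lower in shOSGEP, by log2 ratios of -0.70 (Rpl36) to -0.11 (Rpl14) with a median of -0.30 (background 53.3% lower). At number 2, 55 members were lower and 27 higher, with a median of -0.51 and a range from -1.55 (Rpl8) to 2.29 (Rps24) (background 47.6% lower). At number 3, 24 were lower and 58 higher, with a median of 0.09 and a range from -0.27 (Rpl5) to 0.78 (Rpl36) (background 51.7% lower). The narrow lower shift of number 1, the wide spread of number 2 and the small upward shift of number 3 appeared alike in both subunits. The large and small subunit medians were -0.30 and -0.30 at number 1, -0.43 and -0.53 at number 2, and 0.08 and 0.10 at number 3. Altogether 8 members were lower at all 3 numbers (background 17.2%) and 0 were higher at all 3 (background 17.6%).

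The ratio at number 1 was below 0 for all 82 members under TMM, RLE and upper-quartile scaling and under scaling by total counts alone. That at number 2 depended on the scaling, with 27, 27, 31 and 45 members above 0 in the same order and a median that went from -0.51 under TMM to 0.12 under total counts, a setting added after seeing the data. Set against the median of all genes in the same pair of libraries, which takes the scaling out, the members' medians were -0.28, -0.60 and 0.10 at numbers 1, 2 and 3.

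**Figure D3:**
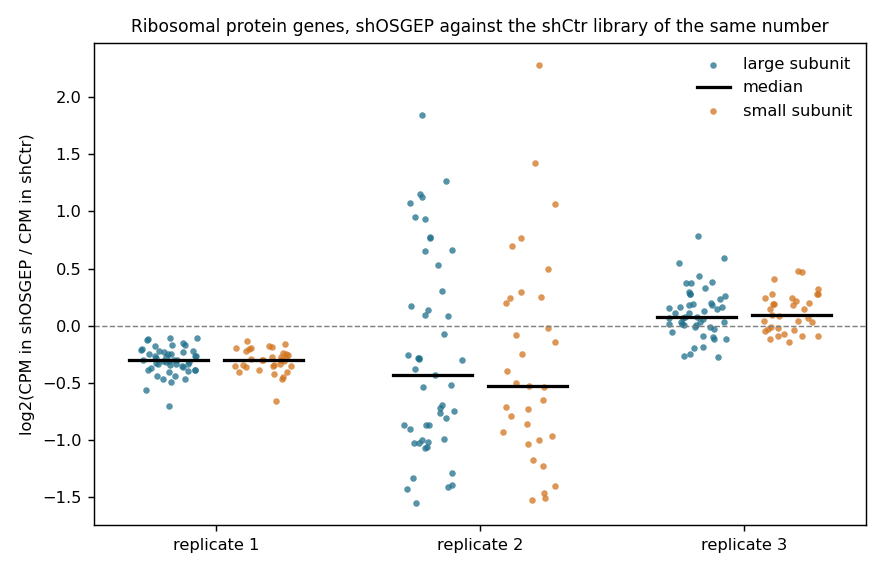
Log2 ratio of CPM in shOSGEP to CPM in the shCtr library of the same replicate number (y axis), 1 point for each of the 82 tested members, with the median of each subunit as a black line. All points of replicate 1 lie below 0, those of replicate 2 spread from -1.55 to 2.29, and those of replicate 3 lie between -0.27 and 0.78.

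Within each group, the library numbered 2 had the highest values for most members. The shCtr 2 library exceeded the geometric mean of shCtr 1 and 3 in 73 of 82 members, by a median of 1.40 on the log2 scale, and the excess ran from -0.85 for Rps24 to 2.86 for Rpl36. In shOSGEP, library 2 exceeded the mean of 1 and 3 in all 82 members, by a median of 1.09, over a narrower range of 0.35 (Rpl7l1) to 1.72 (Rps20). The size of both excesses depends on the TMM scaling, whose factor was 0.690 in shCtr 2 and 1.07 in shOSGEP 2. As a share of all counts, the family stood at 12.5% in both libraries, so the medians do not rank the 2 excesses. The log2 ratio of shCtr 1 to shCtr 3 had a median of -0.01, from -0.58 to 1.25. That of shOSGEP 1 to shOSGEP 3 had a median of -0.40, from -1.49 to 0.70, with 63 of 82 members below 0. Over the 80 protein-coding members tested, the highest library exceeded the lowest by a median of 3.46-fold, from 1.90-fold to 11.9-fold.

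The 5 members with the lowest Log2FC had a pattern across libraries that most of the family also had. Rps3, a small subunit protein at the entry of the mRNA channel that also acts in DNA repair, lies at chr7:99477896-99483738 on the minus strand (GRCm38). It stood at 1354, 5186 and 1552 CPM in shCtr 1, 2 and 3 and at 980.2, 1804 and 1630 CPM in shOSGEP 1, 2 and 3, a Log2FC of -0.87 (SE 0.65, unadjusted p = 0.213, adjusted p = 1.00). The shCtr 2 value was more than 3 times that of any other shCtr library, and the remaining 5 libraries lay between 980.2 and 1804 CPM. Rpl36 (chr17:56613416-56614243, plus strand), a small protein of the large subunit, had 263 and 264 CPM in shCtr 1 and 3 but 1921 CPM in shCtr 2, against 162, 719 and 455 CPM in shOSGEP, a Log2FC of -0.87 (SE 0.89). Without shCtr 2, its Log2FC was 0.76.

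Rps16, which reaches the decoding site (-0.84, SE 0.72), Rps10 (-0.82, SE 0.79) and Rpl8 (-0.80, SE 0.73) completed the low end. Rps10, a small subunit protein of the beak region altered in some Diamond-Blackfan anaemia families, had 512.6, 3269 and 657.9 CPM in shCtr and 406.7, 1183 and 917.8 CPM in shOSGEP. Rpl8, which sits near the peptidyl transferase centre, had 1258, 6481 and 1663 CPM in shCtr and 1048, 2209 and 2148 CPM in shOSGEP. In each of the 5 genes the highest of all 6 libraries was shCtr 2, and in each the Log2FC was above 0 without it, from 0.02 for Rps3 to 0.76 for Rpl36. Among the 82 tested members, shCtr 2 was the highest of all 6 libraries in 55, and without it 80 had a Log2FC above 0. The pattern therefore does not set these 5 apart.

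At the other end stood genes in which shOSGEP 2 was the highest of all 6 libraries, as in 26 of the 82 tested members. It was the highest of the shOSGEP libraries in 81 of the 82. Rpl22l1 (chr3:28805436-28807424, plus strand), a paralog of Rpl22 that can take its place in the large subunit, had 81.4, 47.1 and 34.1 CPM in shCtr and 75.1, 169 and 46.2 CPM in shOSGEP. Its Log2FC of 0.84 (SE 0.58) had the smallest p of all members, an unadjusted p = 0.189 (adjusted p = 1.00). Rps24 (chr14:24487125-24496959, plus strand), a small subunit protein needed for pre-rRNA processing, had 825.4, 347.6 and 477.5 CPM in shCtr and 717.3, 1694 and 448.4 CPM in shOSGEP. Its Log2FC was 0.79 (SE 0.61, unadjusted p = 0.230). Only shOSGEP 2 lay above all shCtr libraries in either gene. Without shOSGEP 2, the Log2FC of Rpl22l1 was 0.17 and that of Rps24 0.09.

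Rps27a, made as a fusion with ubiquitin, had a Log2FC of 0.49 (SE 0.54), as had Rps20 (SE 0.57), a small subunit protein of the head, and Rpl26, a large subunit protein that also binds the p53 mRNA, had 0.46 (SE 0.58). Without shOSGEP 2, the values of Rps27a, Rps20 and Rpl26 were -0.13, -0.31 and -0.29. The 5 smallest unadjusted p-values belonged to Rpl22l1, Rps3, Rps24, Rpl15 and Rps16, from 0.189 to 0.270.

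The order of the members at number 2 and number 3 followed the GC content of their coding sequences. Across the 80 protein-coding members tested, coding GC ran from 39.9% (Rpl22l1) to 61.6% (Rpl36). Its Spearman correlation with the log2 ratio was -0.75 at number 2, 0.72 at number 3 and -0.09 at number 1, and with Log2FC -0.73. These are descriptions over genes measured in the same libraries, which are not independent points. The 27 members with the lowest coding GC (39.9% to 50.6%) had median ratios of -0.30, 0.69 and -0.06 at numbers 1, 2 and 3. The 26 with the highest (54.6% to 61.6%) had -0.31, -1.02 and 0.27. Coding GC also correlated with how far shCtr 2 exceeded shCtr 1 and 3 (Spearman 0.76, n = 80). With offsets for GC and transcript length, the members' median Log2FC was -0.15, with 16 above 0 and 66 below, and 0 members were called. The correlation with GC was not computed over all genes. Over all genes, these offsets took edgeR's common coefficient of variation between libraries from 0.57 to 0.39, so the trend is not shown to be particular to this family.

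**Figure D4:**
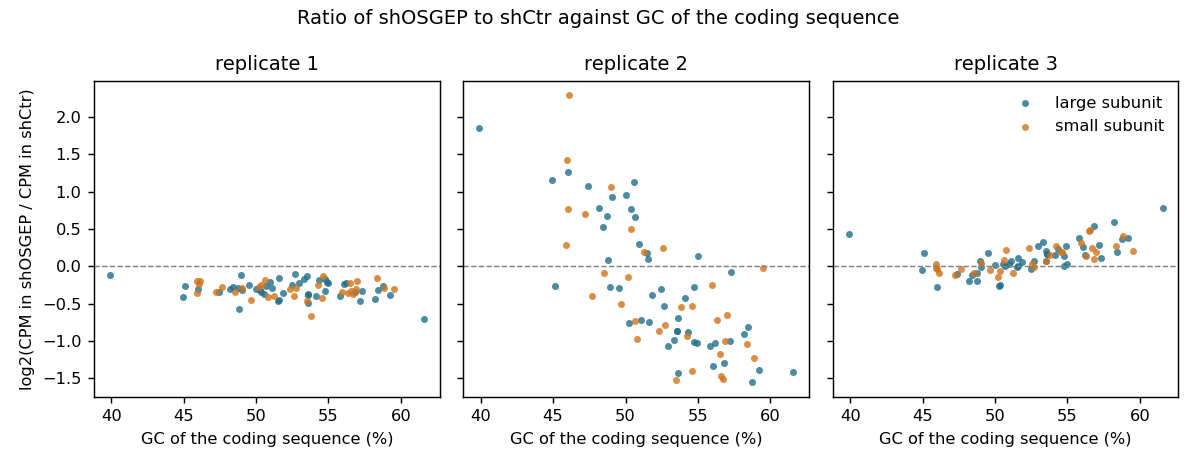
Log2 ratio of CPM in shOSGEP to CPM in the shCtr library of the same number (y axis) against GC of the coding sequence (x axis, %) for the 80 protein-coding members tested, coloured by subunit. The points fall with GC at replicate 2 (Spearman -0.75), rise with it at replicate 3 (0.72) and show little slope at replicate 1 (-0.09).

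The members' coding sequences were short and held many ANN codons, the codons read by tRNAs that carry t6A. They had a median of 151.5 codons, against 469 in the 11427 other coding genes tested, and ANN codons made up a median of 33.9% of them, against 27.0%. Shares ran from 21.1% in Rplp1 to 68.0% in Rpl41, a peptide of 25 codons. The large subunit had a higher median (35.1%) than the small subunit (31.3%), while both had a median coding GC of 52.6% and 52.7%. The share of ANN codons correlated with the log2 ratio by Spearman 0.22 at number 1, 0.49 at number 2 and -0.38 at number 3 (n = 80, description only). It also fell with coding GC (Spearman -0.48), which moved with the same ratios, and the part of either in the ratios was not tested.

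The mRNAs of the P-stalk proteins all had a Log2FC below 0, and those of the 5S RNP proteins had opposite signs. All lay within 2 SE of 0, so neither a likeness nor a difference was shown. The P-stalk, which recruits the GTPase factors of translation, consists of Rplp0, Rplp1 and Rplp2, with Log2FC of -0.71 (SE 0.74), -0.53 (SE 0.88) and -0.74 (SE 0.82). In Rplp0, shCtr 2 stood at 9012 CPM and the other 5 libraries at 1482 to 3580 CPM, and Rplp1 and Rplp2 were highest in shCtr 2 as well. The 5S RNP proteins Rpl5 and Rpl11, which bind Mdm2 when ribosome assembly is disturbed, differed in their pattern. Rpl5 had 899.7, 444.9 and 674.4 CPM in shCtr and 730.3, 1068 and 558.0 CPM in shOSGEP (Log2FC 0.22, SE 0.47), so shCtr 2 was its lowest library. Rpl11 had 618.0, 1904 and 604.0 CPM in shCtr and 438.4, 1041 and 634.9 CPM in shOSGEP (Log2FC -0.56, SE 0.61), so shCtr 2 was its highest. Coding GC was 56.0%, 58.2% and 56.8% in Rplp0, Rplp1 and Rplp2, 53.6% in Rpl11 and 46.0% in Rpl5, and its part was not tested.

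Rps6, the phosphorylation target of the S6 kinases, had 835.7, 1599 and 909.7 CPM in shCtr and 690.2, 1444 and 825.0 CPM in shOSGEP, lower at all 3 numbers by 0.28, 0.15 and 0.14 on the log2 scale (Log2FC -0.18, SE 0.50). Rps19, the gene most often altered in Diamond-Blackfan anaemia, had a Log2FC of -0.41 (SE 0.57). Rpsa, also known as a laminin receptor, had the highest mean CPM of the family, followed by Rps2 and Rplp0, with a Log2FC of -0.79 (SE 0.72). CPM is not divided by length, so this order is one of counts and not of molecules. The lowest mean CPM among the tested belonged to Rpl6l, Rps3a2 and Rpl22l1, of which Rpl6l and Rps3a2 are pseudogenes at 0.930 to 2.21 CPM. Over the 18 genes altered in Diamond-Blackfan anaemia examined, 5 had a Log2FC above 0 and 13 below, with a median of -0.26, and 0 passed an unadjusted p under 0.05.

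Of the paralogs, 3 were expressed and 4 were not. Rpl3l, Rpl10l, Rpl39l and Rps4l had no count in any library, which allows up to 3 counts per library, or 0.102 to 0.159 CPM of the library total before TMM scaling. Rpl22l1 counts amounted to 32.9%, 14.3% and 15.4% of those of Rpl22 in shCtr 1, 2 and 3, and to 36.7%, 35.5% and 22.6% in shOSGEP 1, 2 and 3. The percentage was higher in shOSGEP at all 3 numbers, by 0.16, 1.32 and 0.55 on the log2 scale, yet the groups overlapped (20.8% ± 10.4 against 31.6% ± 7.79, SD, n = 3 each). Rps27l, a p53 target in the small subunit, reached 78.1%, 24.9% and 67.7% of the counts of Rps27 in shCtr and 87.7%, 82.9% and 57.2% in shOSGEP. The shCtr 2 library was far below the other 5. Rpl7l1, a nucleolar relative of Rpl7, reached 14.2%, 36.8% and 24.1% of Rpl7 in shCtr and 14.5%, 10.3% and 21.5% in shOSGEP. Its highest percentage was in shCtr 2 and its lowest in shOSGEP 2. Rpl22 itself had a Log2FC of 0.15 (SE 0.48), Rps27 of -0.62 (SE 0.71), Rps27l of 0.32 (SE 0.52), Rpl7 of 0.30 (SE 0.50) and Rpl7l1 of -0.49 (SE 0.42).

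**Figure D5:**
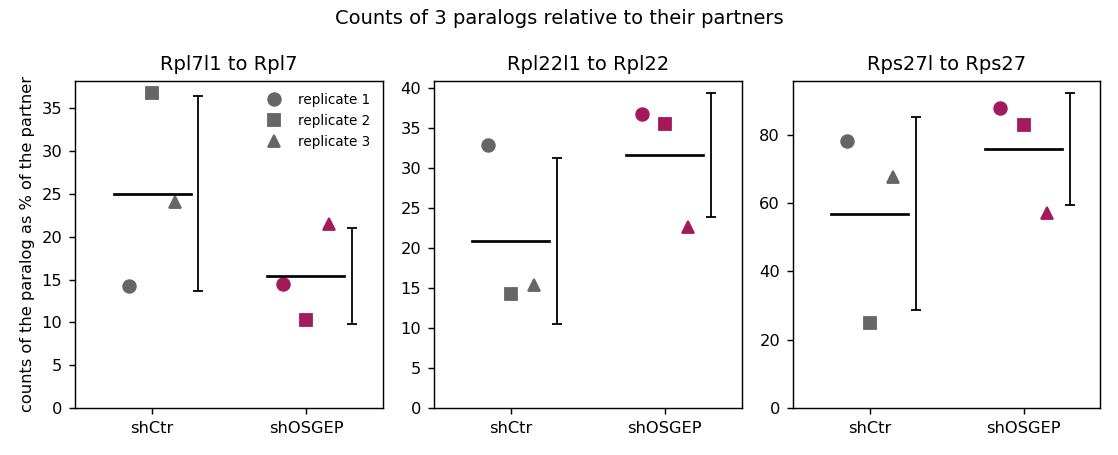
Counts of Rpl7l1, Rpl22l1 and Rps27l as a percentage of those of Rpl7, Rpl22 and Rps27 (y axes) in each library, with the mean of the 3 libraries as a line and the SD as a bar. The groups overlap in all 3 panels, and the shCtr square (replicate 2) is the highest value for Rpl7l1 and the lowest for Rpl22l1 and Rps27l.

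The other untested members were the pseudogenes Rps12l1, also at 0 counts, and Rps3a3 and Rpl32l, which stayed at or below 0.35 CPM. Sequence copies limit the tested members too. In 54 of the 82, more than 50% of the 31-base words of the transcripts also occurred in transcripts of other genes, so the division of reads among copies is uncertain there. A total of 318 rows named as -ps copies of members held between 0.246% and 0.293% of the summed counts of members and copies. With them added, the members' median Log2FC was again -0.29 and 0 members were called. Only rows with -ps in the symbol were added, so any copy named otherwise is not covered.

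Each gene's part of the family total was also followed, which takes out the level of the whole family. It was higher in shOSGEP at all 3 numbers in 5 of 82 members (Rps18, Rpl38, Rpl39, Rps3a2 and Rpl22l1) and lower at all 3 in 5 (Rps3, Rpl11, Rps9, Rpl7l1 and Rps19). These genes were named after their values were seen, and no background was computed for this measure, so the counts do not show that they stood out. Rps3a2 is a pseudogene at 1.15 to 2.21 CPM. The log2 ratio of this part (shOSGEP to shCtr) was 0.18, 2.47 and 0.29 for Rpl22l1 and -0.17, -0.90 and -0.07 for Rps3. For the other 8 genes the values at number 1 or number 3 were at most 0.20 from 0, except the -0.41 of Rpl7l1 at number 3.

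The replicate number was also fitted as a block, since same-numbered libraries deviated together over all genes (correlations 0.81, 0.56 and 0.20). The deviations of shCtr 3 correlated more with those of shOSGEP 1 (0.49) than with those of shOSGEP 3, so these values do not settle the pairing. With the block, edgeR called 0 members by either p, and the median Log2FC was -0.23 with 21 members above 0. Limma-voom with quality weights and the same block was the only fit that called members. It placed 81 of 82 below 0 (median -0.19) and called Rpl35a (-0.45, SE 0.15, adjusted p = 0.0289) and Rps21 (-0.42, SE 0.14, adjusted p = 0.0357), against a background of 11.1%. At an unadjusted p under 0.05 it had 9 members, against a background of 23.0%. Both shares lay below the background. Rpl35a, a large subunit protein altered in some Diamond-Blackfan anaemia families, had 433.6, 732.5 and 356.5 CPM in shCtr and 292.6, 775.5 and 312.2 CPM in shOSGEP. Rps21, a small subunit protein, had 247, 600.7 and 209 CPM in shCtr and 157, 413 and 231 CPM in shOSGEP. Each was lower in shOSGEP at 2 of the 3 numbers, and the groups overlapped.

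Mitochondrial ribosomal proteins, encoded by separate nuclear genes, served as a set of like function. Of 84 listed, 79 were tested, with a median Log2FC of -0.25 and 58 below 0, against -0.29 and 59 of 82 for the cytosolic genes. Their medians at numbers 1, 2 and 3 were -0.23, -0.44 and 0.11, beside -0.30, -0.51 and 0.09. At number 1, 68 of the 79 were lower. The counts on cytosolic genes were 17.0, 19.1 and 16.8 times those on mitochondrial ribosomal protein genes in shCtr 1, 2 and 3, and 16.3, 18.3 and 17.3 times in shOSGEP, so both sets took more of the counts in the libraries numbered 2. Mrps27 had the smallest p of the set, with 29.6, 114 and 42.8 CPM in shCtr and 15.96, 14.57 and 32.92 CPM in shOSGEP (Log2FC -1.55, SE 0.62, unadjusted p = 0.0365, adjusted p = 1.00). It was the only one of the 79 with an unadjusted p under 0.05 (background 2.02%). In 2 of the 79 the groups did not overlap with shOSGEP lower, and in 0 with shOSGEP higher (background 2.87% and 3.49%).

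Genes tied to ribosomal proteins outside the symbol rule were examined next. The 4 genes Rack1, Fau, Rpl36al and Rps27rt, whose products join the ribosome or resemble its proteins, had Log2FC from -0.84 to 0.21, and 0 passed an unadjusted p under 0.05. Rack1, a scaffold on the small subunit, had 1152, 6254 and 1627 CPM in shCtr and 995.3, 2033 and 2025 CPM in shOSGEP. Another list held 21 transcripts taken to carry a TOP motif, Rack1, Fau and Gas5 included. The motif was assumed from the list and not read from their start windows. Of the 21, 7 had a Log2FC above 0 and 14 below, with a median of -0.28. Their range was -0.84 to 1.04 (the helicase Eif4a2, SE 0.97), and 0 had an unadjusted p under 0.05. The lowest p among them was that of the elongation factor Eef1b2 (Log2FC -0.81, SE 0.55, unadjusted p = 0.179).

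Among 17 regulators of the transcription and translation of these mRNAs, 1 passed the threshold of the study (background 2.02%). Larp1b, a relative of Larp1, had 14.0, 5.21 and 12.6 CPM in shCtr and 22.5, 42.5 and 18.7 CPM in shOSGEP (Log2FC 1.40, SE 0.56, unadjusted p = 0.0357, adjusted p = 1.00), with no overlap between the groups (background 6.36%). The next smallest p-values of this list belonged to Eif4ebp2 (Log2FC -0.90, SE 0.58, edgeR unadjusted p = 0.158) and Mlst8 (-0.48, SE 0.50, unadjusted p = 0.359). Larp1 (0.16, SE 0.45), Mtor (-0.21, SE 0.43) and Myc (-0.21, SE 0.45), which were not picked by p, lay near 0 relative to their errors. Of 12 chaperones and importers of ribosomal proteins, 3 had a Log2FC above 0 and 9 below, and 0 had an unadjusted p under 0.05. Grwd1, the chaperone of Rpl3, had the lowest at -0.96 (SE 0.71). The 5S RNP checkpoint had 8 of 9 listed genes tested, 5 above 0 and 3 below, with 0 under an unadjusted p of 0.05, and Mdm2, which the free 5S RNP binds, had a Log2FC of 0.79 (SE 0.70).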

How the data were processed

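Per the labels and methods, the nf-core/rnaseq workflow was run by the authors on GRCm38, with TrimGalore for trimming, STAR 2.6.1d for alignment and Salmon 1.4.0 for quantification. The values deposited by the authors are estimated counts per gene, given as whole numbers without normalization or filter, and were treated as counts. The annotation release and strand setting are not given in the sources used here. Depth ranged from 18915587 to 29487384 counts, and 3 counts served as the limit for genes at 0.

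Members and gene lists were chosen with earlier results of these data known. Groups and numbers came from the labels. Genes were filtered with filterByExpr (minimum count 10, minimum total 15), scaled by TMM and tested with edgeR 4.0.16 (R 4.3.3), quasi-likelihood, two-sided, with Benjamini-Hochberg adjustment over 12669 genes. SE is Log2FC divided by the square root of F. Only the edgeR, DESeq2 and limma-voom fits without a block or offsets were tried on simulated counts. These held no outlying library and less spread between libraries than the data. Named were Osgep, the 5 members with the smallest p, the 5 highest and 5 lowest Log2FC, members without overlap, the P-stalk, Rpl5, Rpl11, Rps27a, Rps6, Rpsa, Rps19, the paralog pairs, the 3 highest and 3 lowest by CPM, and up to 3 genes per list by p. An item of these lists is not reported here and was left out of their counts. Coding features and positions came from GENCODE M21, and start windows from RefSeq GRCm38.p6.

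Same-numbered libraries were taken as paired, because the labels share the numbers, whose meaning they do not state. Deviations from group means also correlated over all genes (0.81, 0.56 and 0.20 for numbers 1, 2 and 3, limit 0.1). But shCtr 3 correlated more with shOSGEP 1 (0.49) than with shOSGEP 3, and shCtr 2 with shOSGEP 3 also passed the limit (0.14). Over the members alone the correlations were 0.86, -0.14 and -0.46. There, shCtr 2 with shOSGEP 3 had 0.86 and shCtr 3 with shOSGEP 1 had 0.72, so the correlations do not single out this pairing. Alternatives were DESeq2 1.42.0, limma-voom (limma 3.58.1) with quality weights, RLE, upper-quartile and total-count scaling, other filters and thresholds, a replicate block, offsets for GC and length (splines with 5 degrees of freedom), added pseudogene copies, and left-out libraries. Replicates are separate infections per the labels, and no molecular identifiers were used.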

Additional observations from a re-analysis of the deposited data

How the results depend on the processing

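No alternative took a ribosomal protein gene past the threshold of the study, and only limma-voom with quality weights and the replicate block called any by adjusted p (Rpl35a and Rps21). The members' median Log2FC (-0.29, large subunit -0.29, small subunit -0.33) moved by more than the spread between replicate numbers in 3 kinds of fit. It was 0.045 (large 0.044, small 0.055) in limma-voom with quality weights and 0.035 (large 0.067, small 0.0070) under total-count scaling, which was added after seeing the data. Leaving out single libraries gave -0.67 to 0.35 (large -0.66 to 0.36, small -0.70 to 0.34), the ends being the fits without shOSGEP 2 and without shCtr 2. Under other scaling, filters, DESeq2, the replicate block (-0.23) or GC and length offsets it stayed below 0. The median of all genes shifted by 0.10 under upper-quartile and by 0.18 under total-count scaling. Relative to it, the members' median was -0.26 under TMM, -0.20 under upper-quartile and -0.11 under total-count scaling. Of the 31 other named genes tested, 21 turned direction without shCtr 2, 17 without both libraries numbered 2, 11 in limma-voom with quality weights (9 with the block), 8 without shOSGEP 2 and 7 under GC and length offsets with or without the block. In every other alternative at most 3 did.

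The difference in share of counts ran from -2.12 to 1.84 percentage points over the left-out libraries. That of the log2 large to small ratio kept its sign, but fell from 0.04 to 0.0018 without both libraries numbered 2. Over all genes, 256 passed the threshold of the study (202 higher, 54 lower). Under total-count scaling 267 were higher and 24 lower. Without a filter the count was 599, in limma-voom with quality weights 560 (with the block 1442), with GC and length offsets 683 (with the block 867), without both libraries numbered 3 163, and over left-out libraries 67 (shOSGEP 2) to 453 (shCtr 1). At an adjusted p under 0.05, edgeR called 0 genes, DESeq2 14, limma-voom with quality weights 3 and with the block added 1403. The causes were not tested. In the main edgeR fit, errors of 0.42 to 0.89 in Log2FC limited what could be called for a member.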
